A study of Mus musculus with 4 samples.

Results

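Malat1 is a long RNA that codes for no protein and stays in the cell nucleus. All peaks that carry its name were collected from maps of N6-methyladenosine (m6A), a methyl group on adenosines inside RNA, in mouse heart. The members are every line with the gene name Malat1 in a pair of deposited peak lists, where a line is 1 peak on 1 annotated transcript. There were 7 such lines among 39717, of which 4 were in the CHAPIR list (of 16562) and 3 in the NC list (of 23155). The gene was chosen by its high fold enrichments and small FDRs in earlier results of these lists, so its folds are given as a description, without a test. The choice set no threshold on a value, so no member lies just inside or outside one.

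The hearts came from C57BL/6 mice that carried an osmotic minipump on the back for 14 days. In the CHAPIR group the pump delivered, at 30 mg/kg, a mimic of the PIWI-interacting RNA named CHAPIR. In the NC group it delivered a scrambled mimic by the same procedure. The labels give neither the age nor the sex of the animals, nor how many hearts made up a sample. In MeRIP-seq, RNA is cut into pieces, here of about 100 nucleotides, the pieces bound by an antibody against m6A are sequenced, and the unselected input is sequenced beside them. Each group had 1 immunoprecipitated library and 1 input library. No test between the groups was therefore possible, and each difference given here lies between these libraries. The read depth is unknown, so no limit of detection can be given for a stretch without a peak.

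Malat1 is among the most abundant nuclear RNAs of mammalian cells and gathers in nuclear speckles, bodies rich in splicing factors. It is transcribed mostly as 1 unspliced RNA, and its end is cut off to release a small transfer RNA-like molecule called mascRNA. In human cells MALAT1 is a known m6A target. There the methyl mark loosens a hairpin and lets the RNA-binding protein HNRNPC bind, and the nuclear m6A reader YTHDC1 binds the methylated RNA. In heart and vessels Malat1 has been studied in cardiomyocytes and in endothelial cells.

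In RefSeq the gene lies on the minus strand of chromosome 19 (GRCm38), 5795690 to 5802672, and is 6983 bases long. Its 5′ end is therefore the highest coordinate, and positions below are counted from 1 at that base. Peaks of both lists began at this first base. The RefSeq sequence around it (GRCm38.p6, chr19:5802623-5802922, minus strand) is shown because it holds the limit that both lists share, with the 50 transcribed bases, all of them under a peak in both lists, in capitals and the 250 bases upstream in lower case.
Malat1 5′ end: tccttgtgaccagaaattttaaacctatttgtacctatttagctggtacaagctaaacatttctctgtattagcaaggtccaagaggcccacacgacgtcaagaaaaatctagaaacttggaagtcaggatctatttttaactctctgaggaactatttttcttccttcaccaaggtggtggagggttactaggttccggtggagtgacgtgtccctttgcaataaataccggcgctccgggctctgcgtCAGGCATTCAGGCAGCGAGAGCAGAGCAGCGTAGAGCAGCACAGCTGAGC
The m6A writer complex prefers an adenosine with a purine before it and a cytosine after it, most often inside GGAC. The 50 transcribed bases hold 15 adenosines, 1 of them followed by a cytosine. Neither GAC nor AAC, which between them cover every such purine, adenosine and cytosine step and also the GAC inside GGAC, occurs in these 50 bases on the sense strand or on the other strand. Of 32817 RefSeq windows of the same length, 68.6% hold at least 1 of these words on the sense strand and 70.7% on the other. In the whole window of 300 bases they occur 8 times on the sense strand, and 99.7% of windows of this length hold at least 1. All 8 lie in the 250 bases upstream, which are not part of the RNA. The match describes these letters alone, and the rest of the peak sequence was not used here.

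The widest Malat1 peak lay at the 5′ end of the RNA in both lists, and in the CHAPIR list a second one lay farther along. This main peak on the full-length transcript ENSMUST00000172812.2 ran from base 1 to base 1799 in the CHAPIR list (5800874 to 5802672) and from base 1 to base 1859 in the NC list (5800814 to 5802672). Its authors' fold enrichment, the immunoprecipitated over the input signal within the peak, was 64.5 in the CHAPIR list and 42.1 in the NC list. The authors' FDR was 0 in both lists, a value too small to have been written. How the libraries were scaled is not stated, so folds rank a peak within its own list and are not compared between lists.

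The 3′ limit of this main peak lay 60 bases farther from the 5′ end in the NC list, at 5800814 to 5800873. Peak limits in these lists move in steps: over 5780 pairs of overlapping single-block peaks on the same transcript of other genes, 22.5% of limits were equal in both lists. Of the unequal ones, 87.2% differed by a multiple of 30 bases, give or take 1 base, and 56.1% by an exact multiple. Evenly spread shifts would fall within 1 base of a multiple in 10% of cases. The shift in Malat1 was 2 steps of 30 bases. Shifts at least that long made up 64.5% of the unequal limits of other genes, whose median was 89 bases.

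A second, weaker peak was present in the CHAPIR list and had no counterpart in the NC list. It covered 181 bases of the same transcript, from base 3597 to base 3777 (5798896 to 5799076). Its fold was 1.36, with an FDR of 5.01e-15. This was the lowest fold of all 98 lincRNA lines of the CHAPIR list (lincRNA is the deposited type for long intergenic noncoding RNA), and 72 of all 16562 CHAPIR lines had a fold this low or lower. Its p-value stood nearer the top, with 4582 lines at or under it. Read numbers were not used here, so whether the same stretch was measured as deeply in the NC library was not tested.

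The remaining lines belong to spliced transcripts. Their peak blocks lie inside the main peak, and the positions of these blocks were identical in both lists. On ENSMUST00000173523.1 the peak held 656 exonic bases in 2 blocks (5801943 to 5802023 and 5802066 to 5802640), with a gap of 42 bases between them. Its fold was 112 in the CHAPIR list and 45.2 in the NC list, the highest of the Malat1 lines in each. On ENSMUST00000173499.1 it held 485 exonic bases, also in 2 blocks (5801916 to 5801966 and 5802238 to 5802671), with a gap of 271 bases. Its fold was 67.1 in the CHAPIR list and 34.5 in the NC list. All 4 of these lines had an FDR of 0. Identical blocks in the other list were present for 4.18% of all CHAPIR lines and 2.99% of all NC lines. Exon models were not used here, so whether these limits are simply the ends of the annotated transcripts was not tested. The lines of 1 list rest on the same reads and are not separate observations of the mark.

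**Figure D1:**
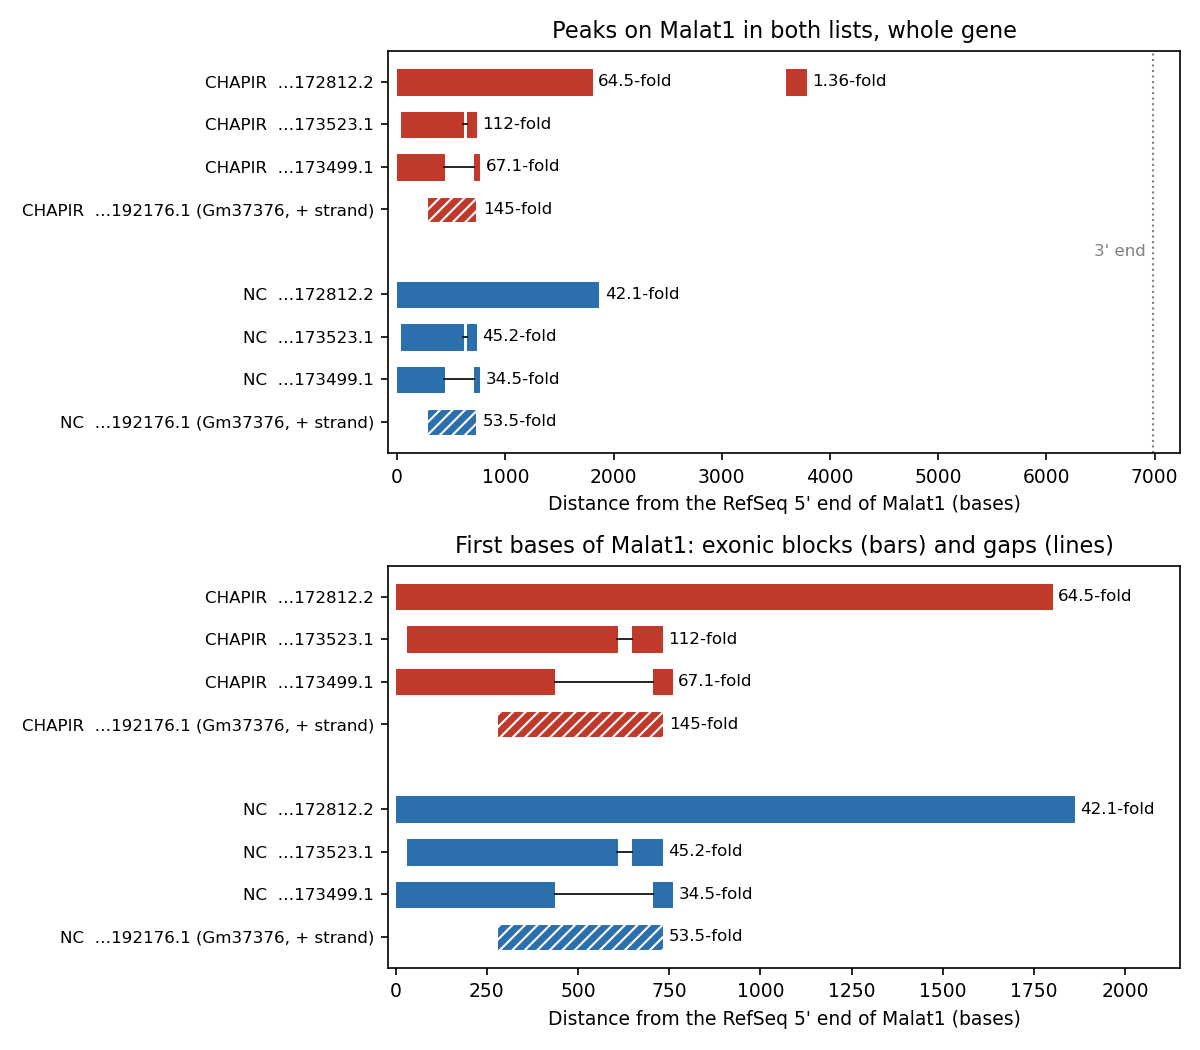
Peaks on Malat1 in the CHAPIR list (red) and the NC list (blue), by distance in bases from the RefSeq 5′ end; each row is a transcript, bars are exonic blocks, thin lines are gaps between blocks, and the number is the authors' fold. The upper panel shows the whole gene with the CHAPIR peak of 181 bases in its middle, the lower panel the first bases, and hatched bars show the line of Gm37376 on the opposite strand.

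Together the Malat1 lines covered 1980 bases in the CHAPIR list, 28.4% of the gene, and 1859 bases in the NC list, 26.6%. They shared 1799 bases, which were 90.9% of the CHAPIR bases and 96.8% of the NC bases. No peak of either list lay in the 1737 bases between the main and the weak peak (1860 to 3596) or in the last 3206 bases of the gene (3778 to 6983). That last stretch includes mascRNA (bases 6692 to 6749).

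By line, 3 of the 4 CHAPIR lines were overlapped by an NC line on the same strand by at least 1 base, and 3 of the 3 NC lines by a CHAPIR line. Over all lines of each list these shares were 72.3% in the CHAPIR list and 50.5% in the NC list. Over lincRNA lines they were 73.5% (72 of 98) and 48.9% (66 of 135). When at least 50% of both peaks had to be shared the Malat1 counts were again 3 and 3, against 47.4% and 32.9% of all lines. The overlap was part of how the gene was described when it was chosen, and nothing is read from these shares.

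Peaks that touch the first base of a gene were rare in these lists. Of the CHAPIR lines whose gene is placed in RefSeq, 24 of 16046 (0.15%) reached the 5′ end within 1 base, and 2 of these were Malat1 lines. In the NC list 25 of 22467 (0.111%) did, and 2 of these were Malat1 lines. The line on ENSMUST00000173523.1 began at base 33 in both lists. RefSeq and the annotation behind the peaks can place a 5′ end at different bases.

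Within each list the 5′ lines of Malat1 stood near the top by fold. In the CHAPIR list, whose median fold was 3.86, the lines at 112, 67.1 and 64.5 had ranks 3, 20 and 21. In the NC list, whose median was 3.49, the lines at 45.2, 42.1 and 34.5 had ranks 11, 15 and 25. Among lincRNA lines the Malat1 lines held the first 3 ranks in each list. The highest fold on another lincRNA was 36.4 in the CHAPIR list, on 2310040G24Rik, and 17.2 in the NC list, on H19. The lincRNA median was 4.63 in the CHAPIR list and 3.39 in the NC list.

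Few peaks were both as strong and as wide. Median width was 181 exonic bases in the CHAPIR list and 238 in the NC list. In the CHAPIR list 1 line of another gene had a fold of at least 64.5 over at least 1799 bases, that of mt-Nd5, a mitochondrially encoded subunit of respiratory complex I. In the NC list no line of another gene had a fold of at least 42.1 over at least 1859 bases. Of the 10 NC lines with a fold above the leading Malat1 line, 1 had an FDR of 0, and the widest held 959 bases. Both CHAPIR lines above the leading Malat1 line had an FDR of 0.

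**Figure D2:**
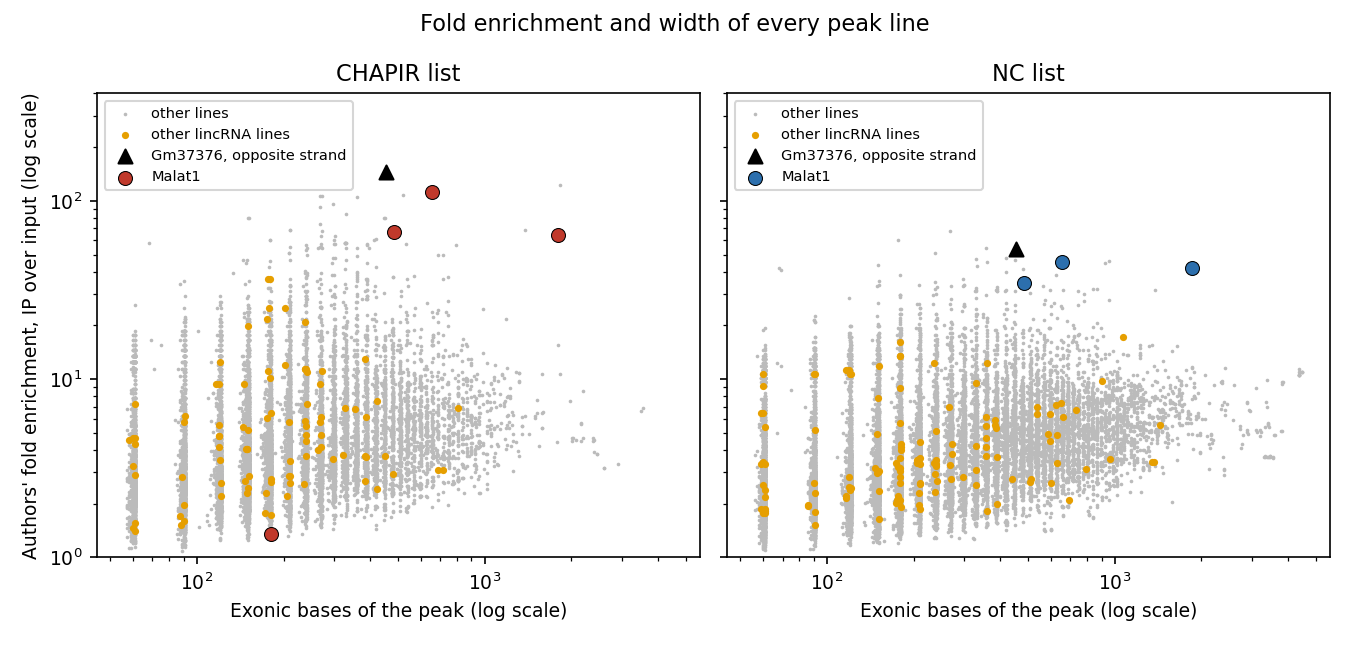
Authors' fold enrichment against exonic width of each peak line, both on log scales, in the CHAPIR list (left) and the NC list (right); grey points are other lines, orange points other lincRNA lines. The 5′ lines of Malat1 (large circles) combine high folds with widths of 485 bases or more, and the weak CHAPIR line of 1.36-fold sits at the lower edge.

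The lists also hold a peak at the same place under a gene model of the opposite strand. Gm37376, a gene model of the deposited type TEC on the plus strand that the RefSeq table used here does not name, had a line of 453 bases in both lists at 5801941 to 5802393, opposite bases 280 to 732 of Malat1. Its fold was 145 in the CHAPIR list, the highest of that list, and 53.5 in the NC list, where its rank was 4. Its FDR was 0 in both lists. All 453 bases lay opposite the main Malat1 peak, and this gene was named after its values were seen.

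Peaks at nearly the same place on opposite strands mostly had similar folds. Pairs of lines on opposite strands that shared at least 90% of their combined exonic bases numbered 85 of 662 overlapping pairs in the CHAPIR list, from 42 pairs of genes, and 90 of 803 in the NC list, from 50 pairs of genes. The lines of Malat1 and Gm37376 share less than that and are not among them, and their folds differed by more than 10%. The folds were within 10% of each other in 58 of the CHAPIR pairs (68.2%) and in 66 of the NC pairs (73.3%). Over all lines the fold quartiles were 2.74 and 6.03 in the CHAPIR list and 2.51 and 5.23 in the NC list. How often unrelated lines have folds this close was not tested. Pearson's r of the log2 folds was 0.94 across the CHAPIR pairs and 0.97 across the NC pairs. These are correlations across peaks that lie at the same place in the same libraries, and genes repeat among them. The library kit keeps strand, but whether the peak caller used it is not stated in the labels, and reads of Malat1 and of Gm37376 cannot be told apart in these lists.

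**Figure D3:**
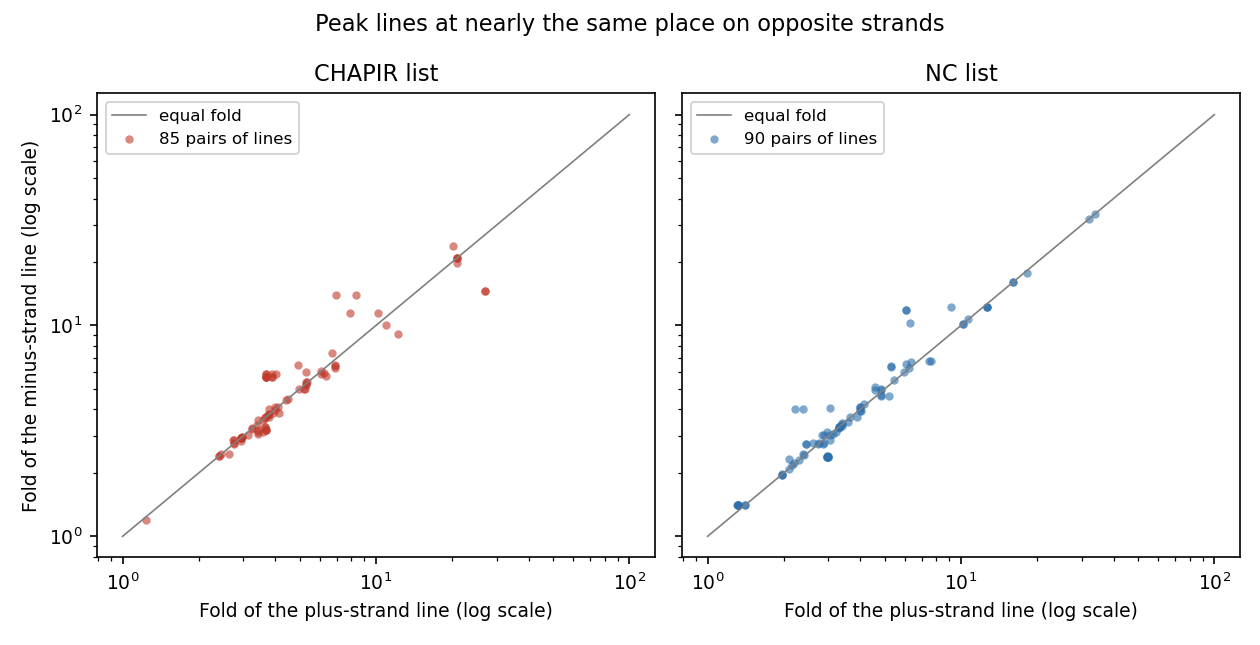
Authors' folds of the plus-strand line (x axis) and the minus-strand line (y axis) for pairs of peak lines that share at least 90% of their bases on opposite strands, on log scales, in the CHAPIR list (left) and the NC list (right). Points gather along the line of equal fold, with 58 of 85 CHAPIR pairs and 66 of 90 NC pairs within 10%.

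The folds of the 5′ lines of Malat1 were set beside the share of each line that lay in the Gm37376 interval. In the CHAPIR list the fold was 145 for Gm37376 itself, 112 for the Malat1 line with 62.3% of its bases in the interval, 67.1 for that with 37.5% and 64.5 for the main peak with 25.2%. The order of folds and shares was the same over these 4 lines, though 67.1 and 64.5 lie close together. The interval is the Gm37376 peak itself, taken up after its fold was seen, so nothing is read from this order. In the NC list the folds were 53.5, 45.2 and 34.5 for the first 3 of these, and 42.1 for the main peak with 24.4%, so the order did not hold there. With 4 lines that share reads this is a description of the folds and not of where the methylated bases lie.

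Neat1, the neighbouring nuclear RNA that builds paraspeckles, had peaks of lower fold. It had 10 lines in the CHAPIR list (folds 1.41 to 11.1, median 2.88) and 7 in the NC list (2.61 to 4.31, median 3.27). They covered 1383 bases in the CHAPIR list and 2265 in the NC list, of which 1353 were shared, 97.8% of the CHAPIR bases and 59.7% of the NC bases. All lay within the first 3210 of the gene's 20773 bases, on 3 transcripts in each list. Exon models were not used here, so whether these transcripts reach farther along the gene was not tested. In Neat1 the highest fold belonged to the peak farthest from the 5′ end (bases 2940 to 3210, 11.1-fold in the CHAPIR list and 4.31-fold in the NC list), whereas in Malat1 it lay in the first 730 bases. Of the other neighbours described here, Ltbp3 had 1 line in the CHAPIR list alone (3.07-fold), and Frmd8 and Slc25a45 had none. No line carries the name Talam1, given to an antisense partner of Malat1, and whether the lists hold that RNA under another name was not tested.

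Of 34 other long noncoding RNAs on a fixed list, 11 had a peak: 7 in both lists, 1 in the CHAPIR list alone (Airn) and 3 in the NC list alone (Xist, Tsix and Rian). Of the 6653 genes that had any peak, both lists held 53.5%, and 15.3% were in the CHAPIR list alone and 31.3% in the NC list alone. The share of all expressed genes that had a peak was not computed, so nothing is read from the 11 of 34. Xist had 10 lines over 2815 bases in the NC list, at up to 5.5-fold, and none in the CHAPIR list. A Tsix line (5.43-fold) and a Xist line (5.5-fold) of the NC list lie on opposite strands at nearly the same place. Their shared fraction of combined bases is 0.949. Whether these lines rest on the same reads was not tested, so Xist and Tsix may not be separate cases. The labels do not give the sex of the animals, and whether the groups differed in sex was not tested. Mhrt, an antisense RNA of the cardiac myosin locus, had a line of 798 bases in both lists, at 6.34-fold in the CHAPIR list and 4.87-fold in the NC list. Peg13, an imprinted RNA, covered 989 bases in the CHAPIR list (2 lines, highest fold 9.44) and 2484 in the NC list (3 lines, highest fold 5.53). Tug1 reached 5.94-fold in the CHAPIR list and 5.59-fold in the NC list. None of the 11 reached the leading fold of Malat1 in either list, while Neat1, Xist and Peg13 covered more bases than Malat1 in the NC list.

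**Figure D4:**
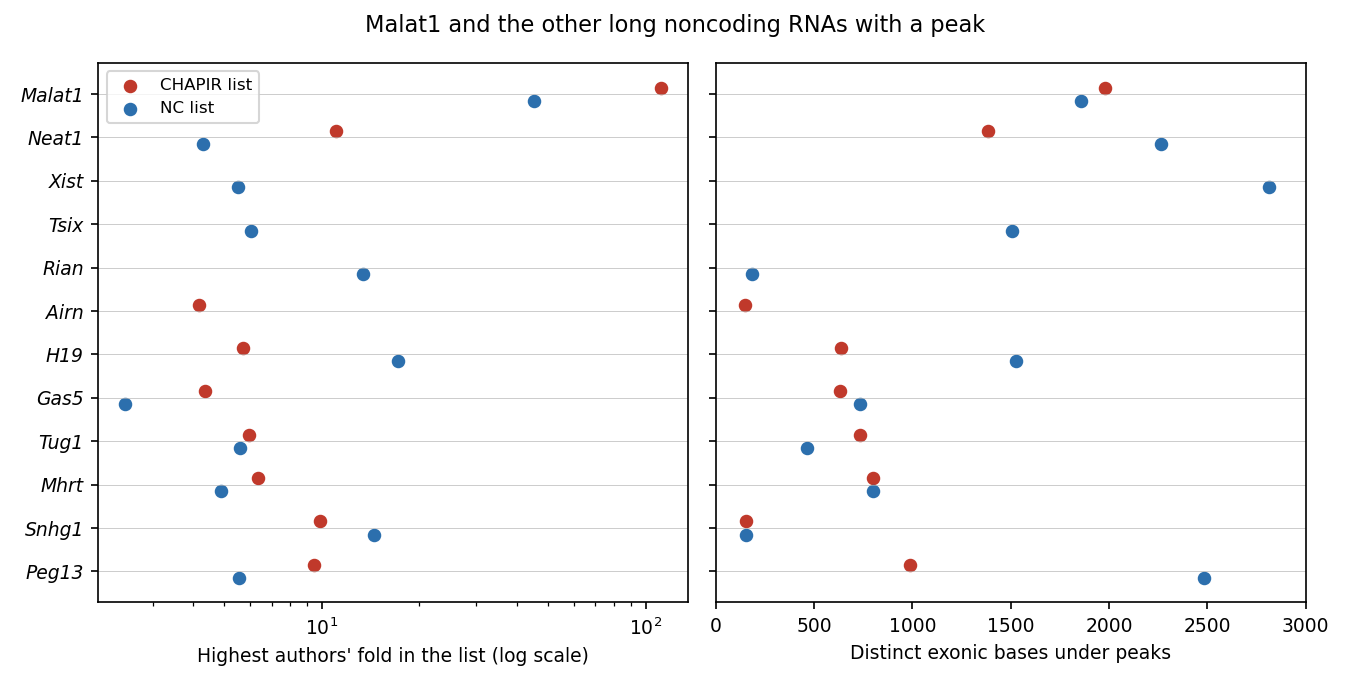
Highest authors' fold (left, log scale) and distinct exonic bases under peaks (right) for Malat1 and the 11 other long noncoding RNAs of the fixed list with a peak, in the CHAPIR list (red, upper point) and the NC list (blue, lower point); a missing point means no peak in that list. Malat1 has the highest fold of these RNAs in each list, at 112 in the CHAPIR list and 45.2 in the NC list.

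The genes most like Malat1 were sought among the other 3556 genes with peaks in both lists. Likeness was the sum of 4 differences in within-list percentile, those of highest fold and of covered bases in each list. Over these 2 lists the nearest was Arglu1, which encodes an arginine and glutamate rich protein that takes part in splicing, at a sum of 4.74 percentile points. Its highest fold on any 1 line was 56.2 in the CHAPIR list and 17.5 in the NC list. All its lines together covered 1600 bases in the CHAPIR list and 2014 in the NC list. The mitochondrial genes mt-Nd5 (4.80 points) and mt-Nd4 (6.28 points) came next. mt-Nd5 reached 122-fold over 1824 bases on 1 line in the CHAPIR list. In the NC list its highest fold was 28.6, and its 2 lines together covered 1347 bases. mt-Nd4 had 1 line of 1378 bases in each list, at 68.3-fold in the CHAPIR list and 31.7-fold in the NC list. Calu, for a calcium-binding protein of the endoplasmic reticulum, followed at 6.88 points and Dst, for the cytoskeletal linker dystonin, at 8.13. Calu had 10 lines in the CHAPIR list and 8 in the NC list, and Dst had 45 in the CHAPIR list and 102 in the NC list.

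Transcripts of proteins that write, read or erase m6A, or bind it in MALAT1, had a peak for 14 of the 18 genes on a fixed list. Of these 14, 9 were in both lists, 5 in the NC list alone and none in the CHAPIR list alone, beside 53.5%, 31.3% and 15.3% of all genes with a peak. No share over all expressed genes was computed to stand beside the 14 of 18, and nothing is read from it. Ythdc1, for the nuclear reader, had a highest fold of 13.9 in the CHAPIR list and 15.6 in the NC list, each on 1 line. Its 16 CHAPIR lines together covered 1344 bases and its 14 NC lines 2128. Hnrnpc reached 3.86-fold in the CHAPIR list and 5.52-fold in the NC list. Mettl16, whose product binds the 3′ end of human MALAT1, had no peak, and neither did Mettl3, Mettl14 and Cbll1 of the writer complex. The 5 in the NC list alone were the writer genes Virma, Rbm15 and Rbm15b, the cytoplasmic reader gene Ythdf1 and the eraser gene Fto, at 2.21- to 4.52-fold.

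Among 11 genes of nuclear speckles and paraspeckles, 10 had a peak, 8 of them in both lists, where 53.5% of all genes with a peak were. Nothing is read from the 10 of 11, because the share over all expressed genes was not computed. The splicing factor gene Srsf5 reached 29.1-fold in the CHAPIR list and 4.13-fold in the NC list, and Srsf1 22.1-fold and 5.63-fold. Srsf2 had a peak in the CHAPIR list alone (11.4-fold) and Pspc1, for a paraspeckle protein, in the NC list alone (3.04-fold). Son, for a scaffold of speckles, covered 2000 bases in the CHAPIR list and 3380 in the NC list. A peak on these transcripts says nothing of the amount of their proteins.

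The tissue label was set against markers, as far as peaks can show it. All 6 cardiomyocyte markers had a peak, 5 in both lists and Actc1 in the CHAPIR list alone. How large a share of all expressed genes had a peak was not computed, for these or the other markers. Of 4 macrophage markers, C1qa was in both lists and C1qb, Cd74 and Lyz2 were in the CHAPIR list alone, and the 3 adipocyte markers Adipoq, Plin1 and Cfd were in the NC list alone. Of all genes with a peak, 15.3% were in the CHAPIR list alone and 31.3% in the NC list alone. Endothelial, fibroblast and smooth muscle markers, 4 of each, had 3 in both lists and 1 in the CHAPIR list alone. The part of differing cell mixtures in the Malat1 peaks was not tested. A peak is enrichment over input and not an amount of RNA, so a marker peak in 1 list alone does not count cells. Fewer cells of a type, less RNA per cell, less of the mark and lower read depth cannot be told apart in such samples.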

How the data were processed

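Per the labels' protocols, reads were trimmed with cutadapt and aligned with HISAT2 (2.1.0) to the Ensembl mouse genome, which the submitters' processing notes give as GRCm38. The same protocols name exomePeak as the peak caller, run on 1 immunoprecipitated over 1 input library for each list; the version, options, threshold and handling of strand are not stated there. The fold enrichment is the authors' ratio within a peak, and p-values and FDRs are those the authors deposited. Depth per sample is unknown. No test between groups was made.

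Starts, which count from 0 in the lists, were raised by 1 base. Exonic blocks were compared with bedtools 2.31.1 (same strand, at least 1 shared base). Python 3.11.15 was used with pandas 2.3.3, numpy 2.4.6 and, for figures, matplotlib 3.10.9. The overlap step recovered 500 of 500 simulated pairs. RefSeq (GRCm38.p6) gave the gene span and the promoter sequence, and its table held 6282 of the 6653 gene symbols. The member and the gene lists were chosen with earlier results of these data known. Named genes were Malat1, the 5 most like it by percentile, and the fixed lists of long noncoding RNAs, neighbours, m6A proteins, speckle proteins and cell markers; any other gene was named after its values were seen. One gene of these lists is not reported here. Alternatives were stricter FDR (1e-05) or fold (4), lists cut to one length, 50% overlap, both strands, whole spans and 1 transcript only.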

Additional observations from a re-analysis of the deposited data

How the results depend on the processing

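The counts of Malat1 lines and peaks, the bases they covered, the bases shared and the lines overlapped in the other list were recomputed under 7 alternatives, which gave 41 values, 39 of them within 1.5 times the reported one. Many of these values could not move. Each Malat1 line had an FDR of 5.01e-15 or lower, and the spliced lines lie inside the main peak. The limit of 1.5 times also counts 3 lines in place of 4 as unmoved. With the full-length transcript alone, 1 CHAPIR line was overlapped by an NC line and 1 NC line by a CHAPIR line, in place of 3 and 3, because that setting leaves out the 2 spliced transcripts. With a fold of at least 4 the weak CHAPIR peak of 1.36-fold was lost, which left 3 CHAPIR lines over 1799 bases. No paired analysis was possible because each group has 1 immunoprecipitated library and no result comes from a test. The part of read depth in the presence of the weak peak in 1 list was not tested.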
